A study of Mus musculus with 9 samples.

Results

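Fetal reversion and YAP signalling were followed through 9 listed genes, of which 8 were measured among the 18193 genes on the arrays. The list holds Clu and Ly6a, both used as markers of a fetal-like state of the gut epithelium, and 7 genes of the YAP pathway: Yap1, Wwtr1, Tead1, Amotl2, Ajuba, Lats2 and Ankrd1. Ly6a was not analysed here. The genes were chosen by name, with earlier results of these data known. For each, the brightest probe set, by its mean level in all 9 arrays, was read among those annotated to that gene alone. A probe set is the group of short probes on an Affymetrix array that reads 1 transcript or part of it.

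YAP, encoded by Yap1, and its relative TAZ, encoded by Wwtr1, are transcriptional coactivators that enter the nucleus and bind TEAD factors such as Tead1. The Hippo kinases, Lats2 among them, phosphorylate YAP and TAZ and hold them in the cytoplasm, so that much of the pathway is regulated at the protein and not at the transcript level. In the gut, YAP activity accompanies repair after injury, when epithelial cells take on a fetal-like programme marked by genes such as Clu.

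RNA of gut epithelial cells from newborn mice (P0) had been hybridised to 9 Affymetrix mouse arrays, with 3 arrays a genotype. The study asked what the transferrin receptor, Tfr1 (gene symbol Tfrc), which takes up iron bound to transferrin, does in this epithelium. Controls were Tfr1fl/fl, with floxed alleles and no Cre named in the labels. Knockouts were Tfr1 IEC-KO, and rescue pups were Tfr1 IEC-KO;ROSA26 Tfr1R654A/+, that is, the same knockout with a Tfr1 allele carrying the R654A change at the ROSA26 locus. No pup was treated. The labels name neither the Cre line of the knockout nor the number of pups behind an array, so the p-values measure the spread between these arrays, which may be technical. Cells were shaken off pieces of small intestine and proximal colon in EDTA and passed through a mesh, with no sort on a surface marker.

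Values are log2 RMA values, on which a difference of 1 is a doubling, and the array medians lay between 5.93 and 6. All 10 epithelial markers were measured, and their mean level was 11.67 to 11.72 in controls, 12.15 to 12.24 in knockouts and 11.86 to 12 in rescue arrays. They did not move alike in the knockout, with differences from -0.74 for Cdx2 to 1.65 for Krt19 and 2.14 for Krt20. Of the 10, 5 were higher and 1 lower at an adjusted p under 0.05 (limma), which 14.1% of all genes reached in either direction. The preparations also held transcripts of other cells, and the amount differed within the knockout group. The mean level of 12 fibroblast markers was 6.92 to 7.50 in controls, 10.65, 10.07 and 7.58 in knockout replicates 1, 2 and 3, and 7.71 to 8.21 in rescue arrays. Of these 12, 3 were higher in the knockout at an adjusted p under 0.05 (limma) and 0 lower, where 5.29% of all genes were higher. All 12 had a positive difference, 11 of them at an unadjusted p under 0.05 (limma), with a median of 2.45 on the log2 scale. The share of all genes at an unadjusted p under 0.05 was not counted, so counts at that p have no background beside them. Xist was 12.02 to 12.75 in control and knockout arrays and 6.45 to 6.83 in the rescue group. Eif2s3y, a Y-linked gene, was 9.36 to 9.70 in the rescue group against 2.34 to 2.88 in the others. By these transcripts the rescue arrays read as male and the control and knockout arrays as female. Sex therefore cannot be told apart from genotype, for any gene, in a comparison with the rescue group. As a check of the labels, 2 of the 3 probe sets annotated to Tfrc alone were 26.0-fold and 18.0-fold higher in rescue than in control arrays, and none of the 3 fell in the knockout beyond the threshold (adjusted p = 0.30, 0.14 and 0.98, limma over all probe sets). The deleted part of the gene is not given in the sources used here, so these probe sets may lie outside it.

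The promoters of the pathway genes are shown because TEAD factors, through which YAP and TAZ act, bind a short core sequence. The core was searched as GGAATG on the printed strand and as CATTCC, its reverse complement, in windows from 250 bases before to 50 bases after each annotated start in RefSeq (GRCm38.p6). Of the 8 genes, 6 have a window, and all 6 held it in at least 1 window, against 4481 of 27025 genes (16.6%). By window it was held by 7 of their 8 windows (87.5%), against 4817 of all 32851 (14.7%). The windows of Wwtr1 that held it overlap and share the same match, so the count by window takes that match more than once. Of listed pathway genes outside the 8 that have a window, 4 of 6 partners of YAP and TAZ, 5 of 17 Hippo regulators, 4 of 12 target genes and 3 of 7 fetal genes held it. The stretches around each match follow, 5′ to 3′ on the gene's strand with the core in capitals. They come from chr9:8004702-8004767 (minus strand) for Yap1, chr3:57576011-57576076 (minus) for Wwtr1, chr9:102717727-102717756 (plus) for Amotl2, chr14:54577790-54577877 (minus) for Ajuba, chr14:57746102-57746131 (minus) for Lats2 and chr19:36119932-36120084 (minus) for Ankrd1.
Yap1: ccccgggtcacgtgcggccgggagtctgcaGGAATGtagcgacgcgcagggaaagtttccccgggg
Wwtr1: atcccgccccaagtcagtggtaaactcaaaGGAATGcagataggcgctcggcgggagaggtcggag
Amotl2: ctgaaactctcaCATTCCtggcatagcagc
Ajuba: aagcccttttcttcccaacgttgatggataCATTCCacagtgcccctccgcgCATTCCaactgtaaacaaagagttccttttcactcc
Lats2: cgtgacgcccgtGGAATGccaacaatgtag
Ankrd1: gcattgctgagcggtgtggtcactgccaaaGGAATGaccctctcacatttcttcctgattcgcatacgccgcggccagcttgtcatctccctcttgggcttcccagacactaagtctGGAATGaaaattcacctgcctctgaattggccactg
Ajuba and Ankrd1 held the core 2 times each and the other genes 1 time in the stretches shown. The match of Lats2 lay 5 bases after the annotated start of its window, inside the transcript, and that of Amotl2 lay inside the gene's annotated span, upstream of the start that anchors the window. The others lay upstream of the annotated gene. A match describes the letters of the window, and whether a TEAD factor binds there was not measured.

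Across the 8 genes, 3 were called between knockout and control, all of them higher in the knockout. These were Clu, Wwtr1 and Amotl2, called at an adjusted p under 0.05 (limma, Benjamini-Hochberg over all genes). Of all genes, 14.1% were called in this comparison and 5.29% were called higher. Every knockout array lay above every control array for 4 of the 8 genes, Clu, Wwtr1, Amotl2 and Ajuba, which 12.7% of all genes did. Between rescue and knockout arrays 1 of the 8 was called, Clu, which was lower in the rescue, where 2.31% of all genes were called and 1.08% were called lower. Between rescue and control arrays 0 of the 8 were called, with 0.126% of all genes called, and 0 of the 8 reached an unadjusted p under 0.05 in limma.

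**Figure D1:**
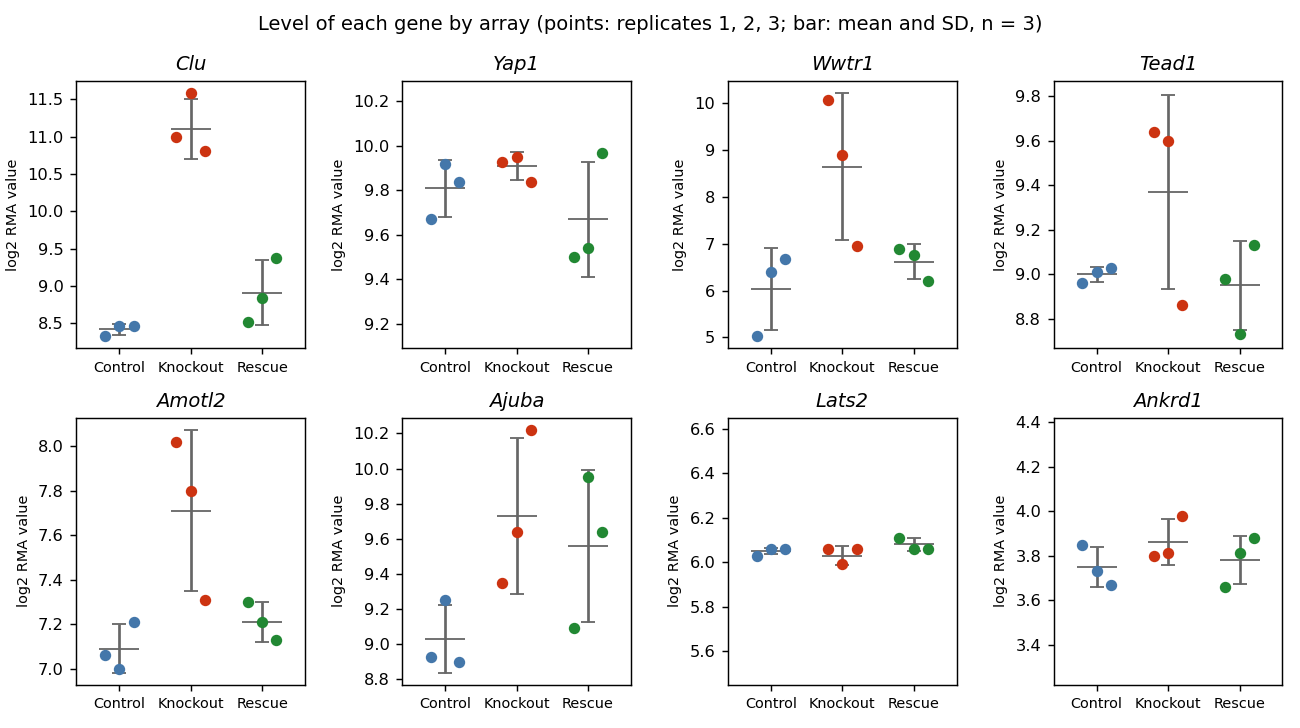
Level of the 8 genes in each array as log2 RMA values, 1 panel a gene, with points for replicates 1, 2 and 3 and a bar for the mean and SD of each group (n = 3). The 3 knockout points of Clu sit between 10.81 and 11.58, above all other arrays, while those of Wwtr1 spread from 6.96 to 10.07; each panel has its own axis.

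Clu encodes clusterin, a secreted chaperone that marks revival stem cells of the injured intestine. Its level was 8.33, 8.47 and 8.46 in control replicates 1, 2 and 3. It was 11.00, 11.58 and 10.81 in the knockout arrays and 8.52, 8.84 and 9.37 in the rescue arrays. The knockout arrays stood apart from both other groups, and all rescue arrays lay slightly above all control arrays, as 6.74% of all genes did. Clu rose 6.53-fold in the knockout (log2 2.71 ± 0.246 SE, 95% interval 2.15 to 3.27, n = 3 against 3, limma adjusted p = 0.00069). It was 4.65-fold lower in rescue than in knockout arrays (log2 -2.22 ± 0.246 SE, limma adjusted p = 0.0057). The rescue exceeded the control by a log2 difference of 0.49 that did not pass the test (95% interval -0.07 to 1.05, limma adjusted p = 0.85).

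Clu was also high in the knockout array with few fibroblast transcripts. Knockout replicate 3, whose fibroblast level was close to the controls, lay 2.39 above the control mean, and replicates 1 and 2 lay 2.58 and 3.15 above it. Array weights, which are lower for an array that departs from its group, were lowest for knockout replicate 3. Its weight was 0.166, against 0.427 to 3.99 for the other arrays. With replicate 3 as the sole knockout array, and its spread taken from the other groups, Clu was still called (log2 2.39, limma adjusted p = 0.0055). With the fibroblast mean as a covariate, the difference was 2.47 (limma adjusted p = 0.0069). All 4 probe sets of Clu rose by between 2.71 and 3.30 on the log2 scale. Of these, 3 carry the suffix that warns of matches to other transcripts. The fourth, without that suffix, rose 7.39-fold (limma adjusted p = 0.00027 over all probe sets), a threshold that 3.47% of all probe sets passed upward.

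Yap1, the coactivator at the end of the Hippo cascade, was nearly flat. Its level was 9.67, 9.92 and 9.84 in controls, 9.93, 9.95 and 9.84 in knockouts and 9.50, 9.54 and 9.97 in rescue arrays. The groups overlapped throughout. The knockout differed from the control by 0.09 ± 0.139 SE (95% interval -0.22 to 0.41, limma adjusted p = 0.72). The difference between rescue and knockout was -0.24 (limma adjusted p = 0.40). The other probe set of Yap1 differed by 0.11 between knockout and control. YAP protein and its place in the cell were not measured.

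Wwtr1, which encodes TAZ, had the widest spread of the 8 genes. Its level was 5.03, 6.40 and 6.67 in controls, 10.07, 8.90 and 6.96 in knockouts and 6.89, 6.76 and 6.20 in rescue arrays. Knockout replicates 1 and 2 stood far above the rest, while replicate 3 lay just above the highest control array and the highest rescue array. The mean rose at least 6.10-fold in the knockout (log2 2.61 ± 0.728 SE, 95% interval 0.95 to 4.27, limma adjusted p = 0.047), a lower bound because the control level is among the dimmest 40% of genes. The rescue lay 2.03 below the knockout, which did not pass the test (limma adjusted p = 0.19), although every rescue array was below every knockout array.

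The Wwtr1 difference followed the arrays rich in fibroblast transcripts. The median of the 12 fibroblast markers lay 3.80, 3.06 and 0.26 above the control in knockout replicates 1, 2 and 3, beside 4.03, 2.87 and 0.93 for Wwtr1. With the fibroblast mean as a covariate the difference of Wwtr1 was 0.44 (limma adjusted p = 0.61), and with knockout replicate 3 alone it was 0.93 (adjusted p = 0.35). Of the 9 fits that each left out 1 array, only that without knockout replicate 3 called Wwtr1 (adjusted p = 0.0024), and in the others it reached up to 0.16. The brightest Wwtr1 probe set had an adjusted p of 0.058 when all probe sets were tested, and of the other 2, which rose by 0.89 and 0.97, the first was called (limma adjusted p = 0.027). In these bulk preparations more cells of a type and more RNA per cell cannot be told apart.

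Tead1, a TEAD factor that carries YAP and TAZ to DNA, showed the same division among knockout arrays. Its level was 8.96, 9.01 and 9.03 in controls, 9.64, 9.60 and 8.86 in knockouts and 8.98, 8.73 and 9.13 in rescue arrays. Knockout replicates 1 and 2 were the highest of all 9 arrays, and replicate 3 was below every control. The difference of 0.36 ± 0.204 SE did not pass the test (95% interval -0.10 to 0.83, limma adjusted p = 0.28). It was -0.20 with the fibroblast mean as a covariate and -0.14 with knockout replicate 3 alone, so its direction was not fixed. Without knockout replicate 3 it was 0.62 and called (limma adjusted p = 0.0076).

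Amotl2 encodes a junctional angiomotin that binds YAP and is itself induced by YAP. Its level was 7.06, 7.00 and 7.21 in controls, 8.02, 7.80 and 7.31 in knockouts and 7.30, 7.21 and 7.13 in rescue arrays. The knockout arrays lay above both other groups, replicate 3 by a small margin. Amotl2 rose 1.54-fold (log2 0.62 ± 0.171 SE, 95% interval 0.23 to 1.01, limma adjusted p = 0.046). Its only probe set was not called when all probe sets were tested (limma adjusted p = 0.056). The difference was 0.14 with the fibroblast mean as a covariate (limma adjusted p = 0.54) and 0.22 with knockout replicate 3 alone (adjusted p = 0.31). It was called in 1 of the 9 fits that left out an array, that without knockout replicate 3, with an adjusted p up to 0.14 in the others. Rescue lay 0.50 below knockout (limma adjusted p = 0.17).

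Ajuba encodes a LIM-domain scaffold of adherens junctions that restrains the LATS kinases, and it ran the other way among the knockout arrays. Its level was 8.93, 9.25 and 8.90 in controls, 9.35, 9.64 and 10.22 in knockouts and 9.09, 9.95 and 9.64 in rescue arrays. The highest array was knockout replicate 3, the one with the fewest fibroblast transcripts of its group, and the rescue arrays overlapped both other groups. The difference between knockout and control was 0.71 ± 0.267 SE, or 1.63-fold, and did not pass the test (95% interval 0.10 to 1.32, limma adjusted p = 0.11). It passed with the fibroblast mean as a covariate (log2 1.33, limma adjusted p = 0.026), and was 1.19 with knockout replicate 3 alone. The fibroblast level differed most within the knockout group, so both fits lean on replicate 3 and are not independent of each other. Of the 9 fits that each left out 1 array, 0 called Ajuba (limma adjusted p from 0.086 to 0.27). Rescue and knockout differed by -0.17 (95% interval -0.78 to 0.43, limma adjusted p = 0.78), and rescue and control by 0.53 (95% interval -0.07 to 1.14, adjusted p = 0.85).

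**Figure D2:**
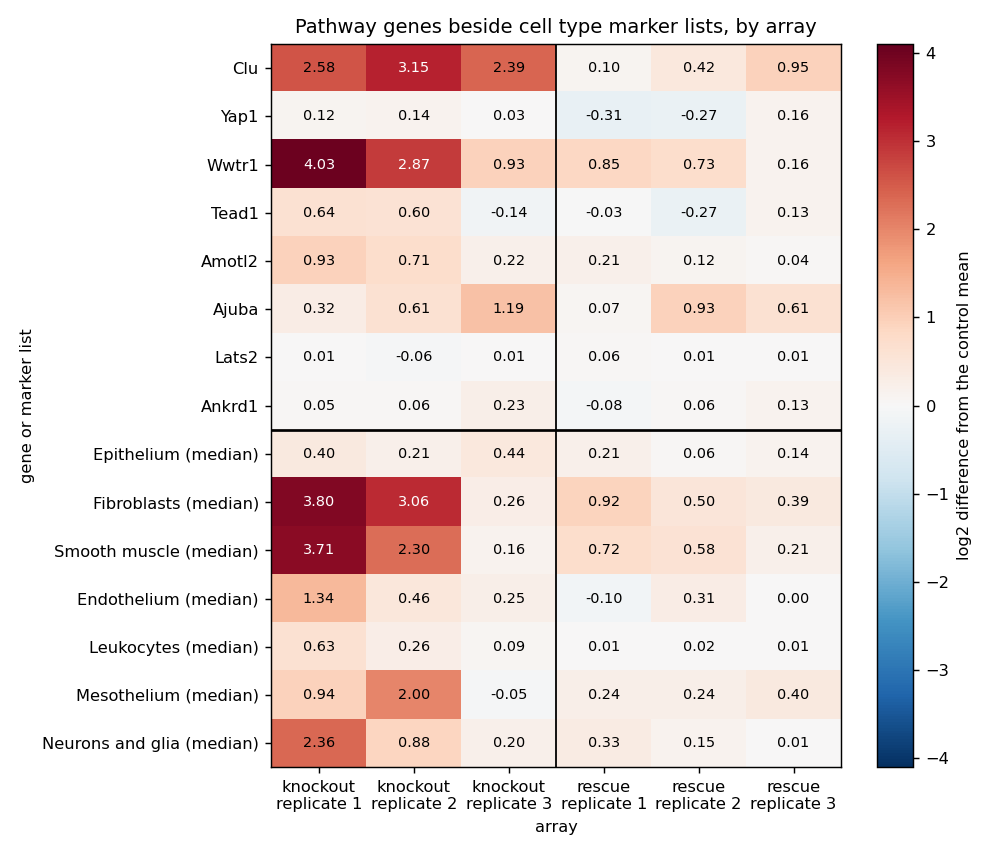
Log2 difference of each knockout and rescue array from the control mean for the 8 genes (upper rows) and the median of each cell type marker list (lower rows), with red for higher and blue for lower. Clu is 2.39 to 3.15 higher in all 3 knockout arrays, Wwtr1 stands at 4.03, 2.87 and 0.93 in replicates 1, 2 and 3 beside the fibroblast list at 3.80, 3.06 and 0.26, and Ajuba is highest in knockout replicate 3 at 1.19.

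Read by array, the genes therefore fell into different patterns. Clu and Ajuba were the genes of the 8 called in the fit with the fibroblast covariate, where 10.9% of all genes were called. With replicate 3 as the sole knockout array their differences were 2.39 and 1.19. In that fit Wwtr1 differed by 0.93, Amotl2 by 0.22 and Tead1 by -0.14. The covariate fit also leans on replicate 3. The fit without knockout replicate 3 called Clu, Wwtr1, Tead1 and Amotl2, where 27.5% of all genes were called. The smooth muscle list moved like the fibroblast list, with medians 3.71, 2.30 and 0.16 above the control in the 3 knockout arrays. The mesothelium list was highest in knockout replicate 2, at 2.00, with 0.94 and -0.05 in replicates 1 and 3. With the mesothelium mean as a covariate, added after the data were seen, Clu remained called (log2 2.18, limma adjusted p = 0.0058) and was the only 1 of the 8 to be so. How far cells of these types contribute to Wwtr1, Tead1 and Amotl2 was not tested beyond these fits.

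Lats2, the kinase that inactivates YAP and TAZ and is also a YAP target, was read by 6 probe sets that disagreed. The brightest, which represents the gene, was 6.03, 6.06 and 6.06 in controls, 6.06, 5.99 and 6.06 in knockouts and 6.11, 6.06 and 6.06 in rescue arrays. That probe set hardly varied over the 9 arrays, with a knockout difference of -0.02 ± 0.0783 SE (95% interval -0.19 to 0.16, limma adjusted p = 0.92). In each group its level lay in the dimmest 40% of genes (percentiles 37.9, 35.6 and 37.8 in control, knockout and rescue). A small difference there does not give the size of a change in transcript. Another probe set, 1437101_at, was 5.12, 5.29 and 5.14 in controls, 6.66, 6.23 and 6.31 in knockouts and 5.92, 5.64 and 5.35 in rescue arrays. Its 3 groups did not overlap, with the knockout highest and the rescue between the others.

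That probe set of Lats2 rose by 1.22 ± 0.164 SE in the knockout (limma adjusted p = 0.0039 over all probe sets), and the rescue lay 0.76 below the knockout (adjusted p = 0.067). A further probe set, 1439441_x_at, was 4.99, 4.85 and 5.06 in controls, 6.98, 6.35 and 5.84 in knockouts and 5.65, 5.25 and 5.11 in rescue arrays, a rise of 1.43 ± 0.261 SE (limma adjusted p = 0.013). The other 3 differed by 0.52, 0.05 and -0.10 and were not called. With the mean of all 6 probe sets in place of the brightest, Lats2 rose by 0.52 (limma adjusted p = 0.017). The direction of Lats2 thus rested on the probe set chosen, and which of them reads the transcript of these cells was not tested.

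**Figure D3:**
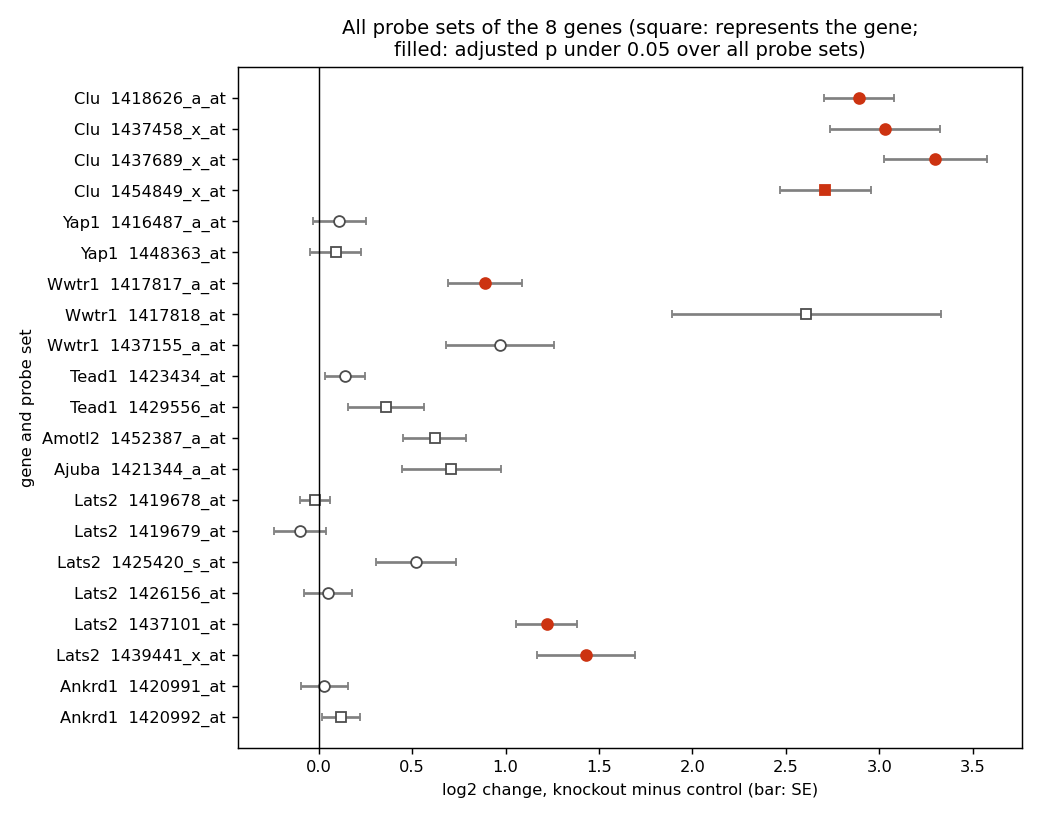
Log2 difference between knockout and control arrays for all 21 probe sets of the 8 genes, with bars for the SE, squares for the probe set that represents each gene and filled marks where the adjusted p over all probe sets is under 0.05. The 4 probe sets of Clu lie together between 2.71 and 3.30, while 2 of the 6 of Lats2 lie at 1.22 and 1.43 and are filled and its square lies at -0.02.

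Ankrd1, an ankyrin-repeat protein whose gene is a widely used reporter of YAP activity, was dim in every array. Its level was 3.85, 3.73 and 3.67 in controls, 3.80, 3.81 and 3.98 in knockouts and 3.66, 3.81 and 3.88 in rescue arrays. The groups overlapped, and knockout and control differed by 0.12 ± 0.102 SE (95% interval -0.12 to 0.35, limma adjusted p = 0.51). In each group its level lay in the dimmest 40% of genes, where a fold is a lower bound, so a small difference on this scale does not give the size of a change in transcript.

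**Figure D4:**
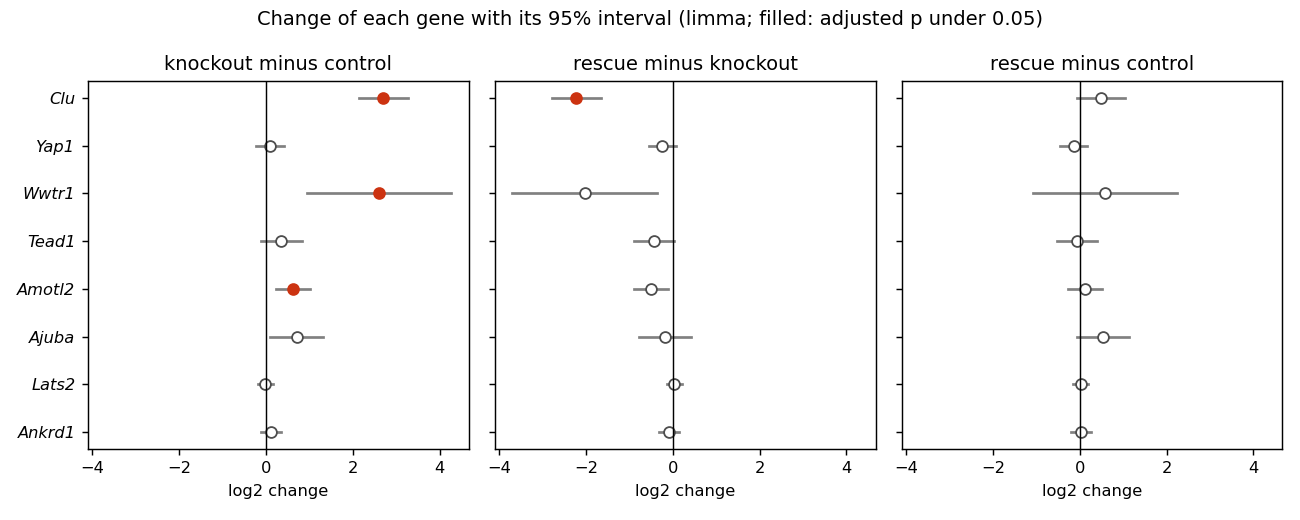
Log2 difference of the 8 genes in each of the 3 comparisons, with 95% intervals and filled points where the limma adjusted p is under 0.05. Clu is filled in the first panel at 2.71 and in the second at -2.22, Wwtr1 and Amotl2 only in the first at 2.61 and 0.62, and no gene is filled in the comparison of rescue with control.

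The pathway as a whole was read from 4 lists, which include the 8 genes and in which a gene may stand more than once. The lists were chosen with earlier results of these data known, so their counts describe the lists and do not test them. Genes of fetal and regenerative epithelium were higher in the knockout in 10 of 13 measured and lower in 0, with a median difference of 1.70 against -0.04 over all genes. Of YAP and TAZ target genes 5 of 23 were higher and 0 lower (median 0.71), and of Hippo kinases and regulators 4 of 23 were higher and 1 lower (median 0.26). Of YAP, TAZ and their TEAD and VGLL partners, 1 of 10 was higher, Wwtr1 itself, and 0 lower (median 0.16). Outside the 8 genes, 9 of 12 fetal genes, 4 of 19 targets, 3 of 20 Hippo genes and 0 of 7 partners were higher. Of all genes, 5.29% were called higher and 14.1% in either direction in the same fit. These shares of all genes changed with the fit. Called higher were 4.41% with the fibroblast covariate, 3.61% with the mesothelium covariate, 5.82% with knockout replicate 3 alone and 12.8% without it.

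Among the other fetal genes the 4 with the smallest p were Ly6d, Anxa1, Krt23 and Anxa3. Ly6d, a small membrane protein of the same family as Ly6a, was 6.31 to 6.39 in controls, 9.81 to 10.72 in knockouts and 7.26 to 7.83 in rescue arrays, a rise of 14.0-fold (limma adjusted p = 0.00018). Its groups did not overlap, and the rescue was 2.62 below the knockout on the log2 scale (limma adjusted p = 0.0024). Anxa1, a phospholipid-binding annexin, rose 7.82-fold (limma adjusted p = 0.00033), Krt23, an epithelial keratin, 3.25-fold (adjusted p = 0.0019) and Anxa3 at least 6.33-fold (adjusted p = 0.0022). Between rescue and knockout 5 of the 13 fetal genes were lower, Clu, Anxa1, Anxa3, Krt23 and Ly6d, and 0 higher, where 1.08% of all genes were called lower. That count was 11 lower and 1 higher without knockout replicate 3 (8.74% of all genes lower), 10 lower and 1 higher with array weights (7.57% lower) and 1 lower with only the 2 groups (0.121% lower). Between rescue and control 0 of 13 were called in limma, with 5 at an unadjusted p under 0.05, for which the share of all genes was not counted. In the knockout, 6 of 13 were higher with the fibroblast covariate (4.41% of all genes), 8 with knockout replicate 3 alone (5.82%) and 11 without it (12.8%), so that the last count stands beside a larger share of all genes. The mesothelium list moved with this one in knockout replicates 1 and 2, and 7 of 13 were higher with its mean as a covariate (3.61% of all genes). Msln, which was called among the fetal genes, is also a mesothelial marker.

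Among the other target genes, Nt5e, the ecto-enzyme that makes adenosine, was 7.50 to 8.41 in controls, 10.91, 10.31 and 13.01 in knockouts and 9.87 to 10.66 in rescue arrays. It rose 11.9-fold (limma adjusted p = 0.0082) and, like Ajuba, was highest in knockout replicate 3. Ccn2 and Ccn1, secreted matricellular proteins and common YAP reporters, rose 4.97-fold (limma adjusted p = 0.013) and at least 1.72-fold (adjusted p = 0.016). Igfbp3, a secreted binding protein of insulin-like growth factors, rose 5.06-fold (limma adjusted p = 0.0087). In knockout replicates 1, 2 and 3 Igfbp3 lay 3.18, 2.38 and 1.45 above the control mean. Ccn2 lay 2.86, 2.61 and 1.47 above it and Ccn1 1.02, 0.91 and 0.42. Unlike Nt5e, these genes were thus lowest in replicate 3, the knockout array with the lowest fibroblast level. Ccn2 was 9.49, 9.24 and 8.10 in the knockout arrays, 6.02 to 7.47 in controls and 6.21 to 6.89 in rescue arrays, so that all knockout arrays stood above the others. Ccn2 and Igfbp3 were also the 2 targets called lower in rescue than in knockout, with log2 differences of -2.50 and -2.07 (limma adjusted p = 0.032 and 0.043). Asap1, a regulator of the actin cytoskeleton, differed by 1 on the log2 scale without passing the test (limma adjusted p = 0.061). With knockout replicate 3 alone, 5 target genes were higher and 1 lower (5.82% of all genes higher), and with the fibroblast covariate 4 were higher and 1 lower (4.41%). With the mesothelium covariate 1 of the 23 was higher (3.61%). Leaving out 1 array gave 2 to 10 higher. It was 2 without control replicate 1 or 3 (2.23% and 2.02% of all genes higher) and 10 without knockout replicate 3 (12.8%). In rescue against knockout 1.08% of all genes were called lower. The 2 lower targets became 0 with the mesothelium covariate (1.27% of all genes lower) and 9 with array weights (7.57%). With the fibroblast covariate 3 were lower and 1 higher (2.37% of all genes lower and 2.97% higher). With 1 array left out 0 to 8 were lower (0.324% to 8.74%), 8 being without knockout replicate 3 (8.74%).

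Among the other Hippo genes, the angiomotins went in opposite directions. Amotl1 rose 3.96-fold (log2 1.99 ± 0.355 SE, limma adjusted p = 0.0092), beside the rise of its relative Amotl2. Amot, the founding member, was 9.44, 9.64 and 9.65 in controls, 8.70, 9.08 and 8.74 in knockouts and 9.51, 9.18 and 9.67 in rescue arrays. Amot fell by 0.74 on the log2 scale in the knockout, or 1.67-fold (limma adjusted p = 0.018), and all knockout arrays lay below all others. That call was lost with the mean of all probe sets, where 0 Hippo genes were lower (9.14% of all genes lower). Lower Hippo genes were also 0 without control replicate 2, control replicate 3 or knockout replicate 1 (4.18%, 3.12% and 5.35% of all genes lower). Frmd6, an upstream FERM-domain activator of the cascade, rose 2.36-fold (limma adjusted p = 0.016), and Taok1, a kinase that activates the Hippo kinases, 1.64-fold (adjusted p = 0.018). Amotl1 and Frmd6 were 2.46 and 1.80 above the control mean in knockout replicate 1 and 1.09 and 0.62 in replicate 3. With the fibroblast covariate 2 Hippo genes were higher and 0 lower (4.41% of all genes higher), and with the mesothelium covariate 0 were higher and 1 lower (3.61%). Leaving out 1 array gave 1 to 10 higher, with 1 without control replicate 1 or 3 (2.23% and 2.02% of all genes higher). The count was 2 without control replicate 2 (2.48%) and 10 without knockout replicate 3 (12.8%). None (0) of the 23 Hippo genes and 0 of the 10 partners of YAP and TAZ were called in limma between rescue and knockout, where 8 and 2 had an unadjusted p under 0.05. Between rescue and control 0 of either list were called in limma, with 0 and 1 at that unadjusted p. The share of all genes at that unadjusted p was not counted, so these counts describe the lists only.

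**Figure D5:**
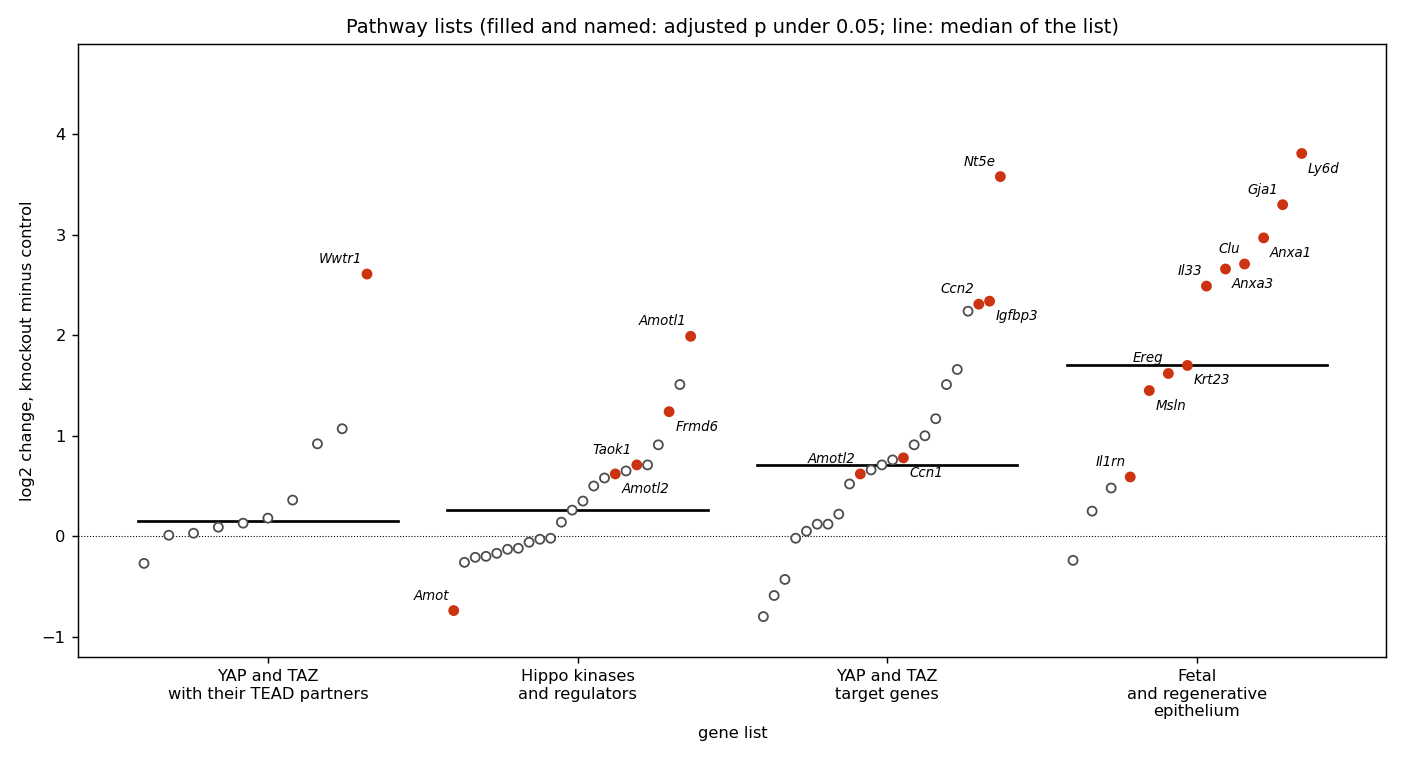
Log2 difference between knockout and control arrays for each measured gene of the 4 pathway lists, with a line at each list's median and filled, named points where the limma adjusted p is under 0.05. In the fetal list 10 of 13 points are filled and all of them lie above 0, while in the list of YAP, TAZ and their partners 1 of 10 is filled.

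Of the VGLL cofactors, which compete with YAP for TEAD factors, Vgll3 was 7.90 to 8.73 in controls, 8.94 to 9.70 in knockouts and 8.87 to 10.05 in rescue arrays. All knockout and all rescue arrays lay above all control arrays. The knockout difference of 1.07 did not pass the test (limma adjusted p = 0.069), nor did the rescue difference of 1.28 (adjusted p = 0.34). Tead2 was 4.49 to 4.51 in controls, 5.72, 6.28 and 4.26 in knockouts and 4.25 to 4.57 in rescue arrays. Its level, like that of Tead1, was high in knockout replicates 1 and 2 and not in replicate 3, and its difference of 0.92 was not called (limma adjusted p = 0.19). Vgll4 and Vgll1 differed by 0.18 and -0.27 and were not called (limma adjusted p = 0.56 and 0.41).

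The genes whose levels ran most like each of the 8 over the 9 arrays were found by Pearson's r among 10916 genes above the dimmest 40%. These values describe arrays that share their groups and their content of other cells. For Clu they were Suox (0.987), Nrk (0.981) and Gsta4 (0.978). For Wwtr1 they were Lamb1 (0.992), Sparcl1 (0.99) and Itga4 (0.989), and for Amotl2 they were Reln, Tuba1a and Akap12, at 0.989 each. For Tead1 the first was Jph2 (0.983), followed by Ift81 (0.979) and Zfp428 (0.973). For Ajuba they were Kdelr3 (0.985), Rps6ka6 (0.984) and Atp8b1 (0.929). For Yap1 the values were lower, Mbtps1 (0.895) being the first and Stxbp5 and Zbtb18 next at 0.878 each. For Lats2 they were Metrnl (0.968), Trappc10 (0.941) and Zfp652 (0.922), and for Ankrd1 Zfp386 (0.929), Dscam (0.901) and Lias (0.892). Both of the latter genes varied little over the 9 arrays, so these values rest on small differences.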

How the data were processed

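Cells of 3 control, 3 knockout and 3 rescue arrays were compared. The authors deposited log2 values made with RMA in Partek 6.5, per the submitters' processing notes; the background step is not given in the sources used here. Of 45101 probe sets, 34945 outside the array's control probe sets carried a single gene symbol in the platform annotation, 932 several and 9211 none, which left 18193 genes. None (0) of 36 array pairs was identical. The 3 group means were fitted with limma 3.58.1 in R 4.3.3 on all 9 arrays, with Benjamini-Hochberg adjustment over all genes at 0.05, two-sided; the median SE of a knockout difference was 0.147. The fit was tested on simulated data. A fold against a level in the dimmest 40% of a group's genes is written "at least". Besides the 8 genes, the text names up to 4 others from each pathway list with the smallest p in knockout against control, up to 2 in rescue against control, the 3 nearest genes by correlation, and genes behind a small count. The genes and lists were chosen with earlier results of these data known. Alternatives covered probe sets, dim genes, centring, spread, weights, blocks, marker covariates and arrays left out. Sequences are RefSeq's (GRCm38.p6).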

Additional observations from a re-analysis of the deposited data

How the results depend on the processing

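Clu was called higher in the knockout in all 20 alternatives (log2 2.18 to 3.00) and lower in rescue than knockout in 19 of 20, the exception being the fit of only the 2 groups (adjusted p = 0.062, limma). Wwtr1 and Amotl2 were called in 7 and 6 of 20. The number of the 8 genes called in knockout against control, 3 as reported, was 1 with only the 2 groups, 1 with a replicate block, 1 with the mesothelium covariate (chosen after seeing the data, as was the test of every probe set), and 5 with array weights. Leaving out 1 array gave 1 to 4. All genes called (2559) became 1655 with only the 2 groups, 6395 with array weights and 936 to 4998 with 1 array left out. In rescue against knockout, 0 of the 8 were called with only the 2 groups, 4 with array weights and 1 to 4 with 1 array left out. All genes called there (420) became 30 with only the 2 groups, 257 with the replicate block, 2453 with array weights, 972 with the fibroblast covariate, 1096 with knockout replicate 3 alone and 105 to 2793 with 1 array left out. In rescue against control, the 23 genes became 149, 12, 355, 106 and 149 under those settings, 14 with trend and robust estimates, 48 with the mesothelium covariate and 2 to 136 with 1 array left out.

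Signs turned in knockout against control for Lats2 (0.52 with the mean of probe sets, 0.03 with mesothelium, 0.01 with knockout replicate 3 alone, -0.03 to 0.01 with 1 array left out), Tead1 (-0.20 with fibroblasts, -0.11 with mesothelium, -0.14 with replicate 3 alone) and Yap1 (-0.04 with mesothelium). In rescue against knockout they turned for Lats2 (-0.27, mean of probe sets), Tead1 (0.08, replicate 3 alone) and Ajuba (-0.37 to 0.07, 1 array left out). In rescue against control they turned for Wwtr1 (-0.05) and Amotl2 (-0.02) with fibroblasts, and with 1 array left out for Ankrd1 (-0.01 to 0.09) and Tead1 (-0.15 to 0.05). The cause was not tested.

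Deviations of same-numbered arrays from their group means had correlations of -0.222 to 0.402. The highest were 0.402 for knockout and rescue replicate 1 and 0.342 for knockout and control replicate 2. The labels give only a replicate number, so the replicate block pairs arrays by number alone. That block left Clu called (adjusted p = 0.0027, limma) and not Wwtr1 (0.069) or Amotl2 (0.059). The 3 arrays a group limit the precision.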
